A study of Mus musculus with 2 samples.

Results

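The nuclear-encoded subunits of the mitochondrial respiratory chain and ATP synthase were examined in ureters of mouse embryos at E18.5, close to birth, that lacked functional PPARG in the ureteric epithelium. The members are defined by gene symbol, as every array gene whose symbol begins with Ndufa, Ndufb, Ndufc, Ndufs, Ndufv, Uqcr, Cox4 to Cox8 or Atp5, together with Sdha to Sdhd, Cyc1 and Cycs. This gave 95 of the 29923 genes on the array, read by 140 probes. By name they fell into 38 genes of complex I, 7 Ndufaf genes for assembly factors of complex I, 4 of complex II, 9 of complex III, Cycs for cytochrome c, 18 of complex IV and 18 of complex V, which is ATP synthase. The name rule also took in Atp5s and Atp5sl, which do not encode subunits of the enzyme, and the pseudogene Atp5c1-ps. Ndufa4 was counted with complex I by its name, although its product is now known as a subunit of complex IV. Its paralog Ndufa4l2 was counted there by name as well. The embryos were of the NMRI outbred strain. Pparg-cKO embryos carried the transgene Pax2-cre and floxed Pparg alleles on both chromosomes (Pax2-cre/+; Pparg(fl/fl)), and control embryos were labelled Pparg(fl/?) and were cre-negative littermates. Pax2-cre is active in the nephric duct and the epithelia derived from it, so Pparg was removed in the epithelium of the ureter but not in its muscle and connective tissue, while RNA came from whole ureters pooled from several embryos. Each of the 2 two-colour arrays set 1 Pparg-cKO pool against 1 control pool, of females on the array of replicate 1 and of males on that of replicate 2. A ratio therefore has n = 2 arrays, and sex, dye orientation and array changed together and cannot be told apart.

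The respiratory chain passes electrons from NADH through complex I, or from succinate through complex II, to ubiquinone, and on through complex III, cytochrome c and complex IV to oxygen. Complexes I, III and IV pump protons across the inner mitochondrial membrane, and complex V uses the gradient to make ATP. Each of these complexes except complex II also holds subunits encoded by mitochondrial DNA, so that their assembly needs both genomes. PPARG is a nuclear receptor that controls genes of lipid metabolism, and in the urothelium, the epithelium that lines the ureter, it is known for its part in the differentiation of superficial cells.

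All signs below follow the deposited value table, which by its headings compares Pparg-cKO with control, and this is also the direction of the changes described in the study's text. It is therefore taken as the likely direction. The dye labels run the opposite way on both arrays, and if they are right as written, higher and lower are exchanged throughout while every size and p-value stays. The probe for the targeted gene Pparg gave a processed signal of 12357 in the Pparg-cKO pool and 6113 in the control pool on the female array, and of 12930 and 6688 on the male array. The higher signal thus belonged to the pool called Pparg-cKO. With the same signs, all 6 markers of superficial urothelial cells were lower in the pools called Pparg-cKO on both arrays. The probe lies at chr6:115440213-115440272 (mm9), and its place relative to the deleted exons 2 and 3 was not given in the sources used here. By the study's methods the deleted allele still gives rise to a truncated protein, and a probe outside these exons would read its transcript too. The signal taken alone therefore does not check the labels. Between 66.2% and 77.3% of spots were well above background in each channel, no spot was saturated, and between 2.87% and 3.24% of spots were left out as outliers. The number of arrays limits the precision of all values. Limma's p-values do not rest on a gene's own spread between these 2 arrays alone. That spread has 1 degree of freedom and is combined with a spread estimated from all genes tested, which has 3.96.

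Transcripts of the respiratory chain were slightly lower in Pparg-cKO ureters on both arrays. Of the 95 genes, 94 were well above background in at least 1 pool on each array and were tested, and only Cox8c was not. The median log2 ratio of Pparg-cKO over control was -0.16 over these 94 genes, with medians of -0.21 in females and -0.14 in males. Over all 22499 genes tested the median was 0.01. Ratios were below 0 on both arrays for 68 of the 94 genes, which is 72.3%, against 26.0% of all genes tested. They were above 0 on both arrays for 3 genes, Ndufa4l2, Atp5g2 and Uqcrc1, against 26.7% of all genes tested. The remaining 23 genes had ratios of opposite sign, and in 17 of these the ratio was below 0 in females and above 0 in males. Because the probes of respiratory chain genes are bright, the same counts were taken over the 1296 genes at or above the members' median brightness. Their median was 0.00, and 23.9% of them were lower on both arrays. This set includes the brighter members and is not matched in brightness. The median signal of the brighter pool was 16971 in it and 7937 in the members. The median SD between arrays was 0.10 over the respiratory chain genes and 0.12 over all genes tested. All genes tested are much dimmer, with a median signal of 258, and the SD of genes of like brightness was not taken.

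**Figure D1:**
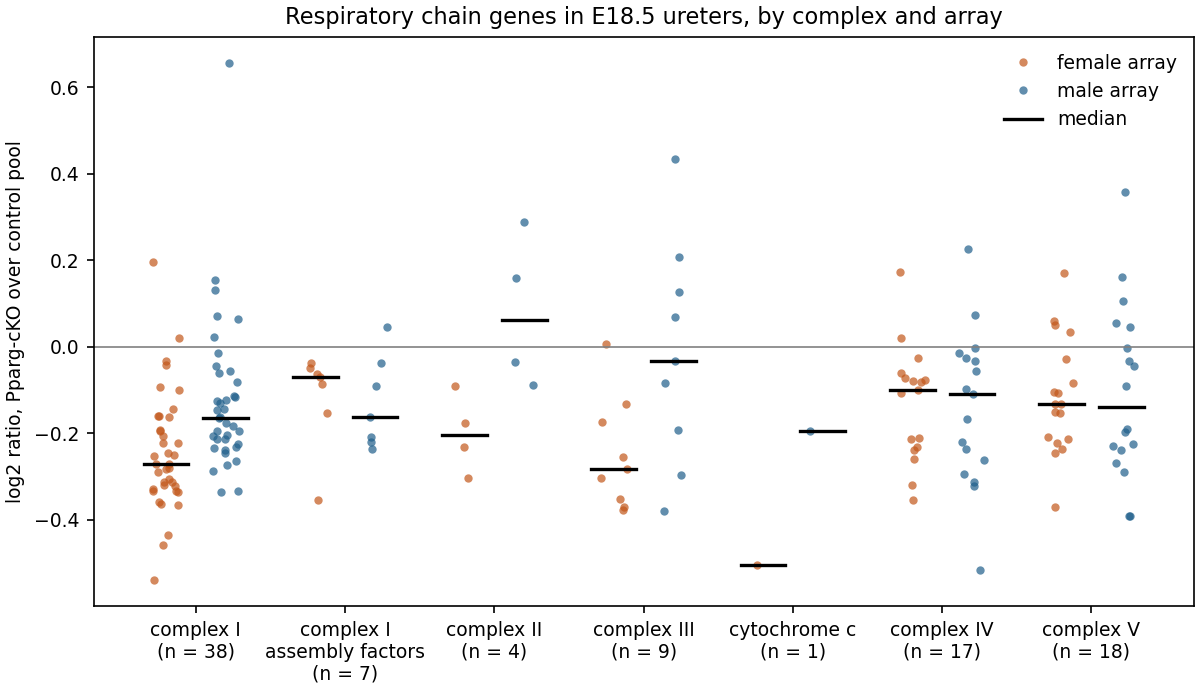
Log2 ratio of Pparg-cKO over control (vertical axis) for each of the 94 tested respiratory chain genes, grouped by complex (horizontal axis), on the female (orange) and male (blue) array, with the median of each group as a black line. Points of complex I lie mostly below 0 on both arrays, with medians of -0.27 and -0.16, while the medians of complex II are -0.20 in females and 0.06 in males.

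The differences of single genes were small. No respiratory chain gene was changed by 1.5-fold on both arrays with a signal of at least 100, the rule of the study's methods, which 1.84% of the genes bright enough passed. No respiratory chain gene passed limma's test at an adjusted p under 0.05 either, against 0.742% of all genes tested, and the smallest adjusted p was 0.361, of Atp5l. At an unadjusted p under 0.05, limma gave 14 genes that were lower, or 14.9% of those tested against 4.17% of all genes, and 1 that was higher, against 4.27% of all genes. The count of 14 moved between 3 and 34 with the processing of the arrays, whereas the count of genes lower on both arrays stayed between 63 and 71 and the median between -0.19 and -0.16. With the fold set at 1.2 on both arrays, 7 of the 92 genes bright enough were lower, which is 7.61% against 3.28% of all genes bright enough. None was higher, against 2.90% of all genes bright enough. These 7 genes were Ndufa1, Ndufa4, Ndufb2, Ndufb4, Uqcrq, Cox7c and Atp5l, and the count was 3 under median centring and between 6 and 10 under the other settings. The mean ratio of 77 of the 94 genes lay within 1.2-fold of equality, and that of all 94 within 1.5-fold.

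**Figure D2:**
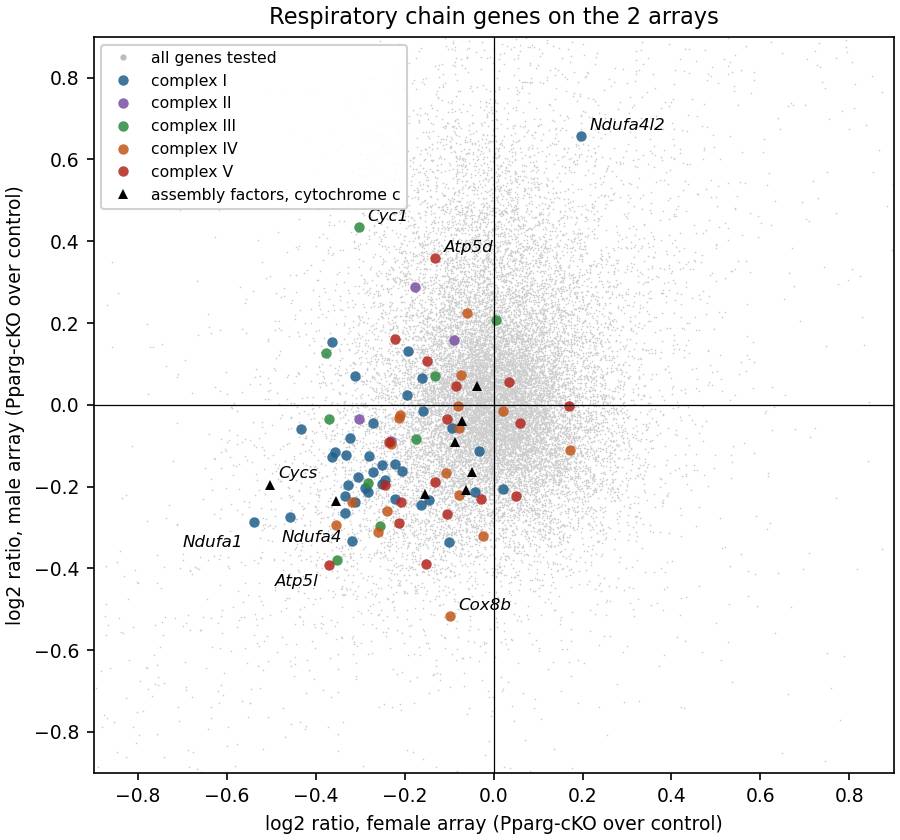
Log2 ratio of Pparg-cKO over control on the female (horizontal axis) against the male array (vertical axis), with respiratory chain genes coloured by complex and all genes tested that fall within the axes in grey. Most coloured points lie in the lower left part, where both ratios are below 0, and Ndufa4l2 stands apart at 0.20 and 0.66.

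Complex I, the NADH dehydrogenase and largest complex of the chain, had the lowest median of the 5 complexes in the mean over both arrays, at -0.21. Its array medians were -0.27 in females, where that of complex III was lower, and -0.16 in males. Of its 38 genes, 31 were lower on both arrays and 1 was higher on both, and the mean ratio was below 0 for 37. Ndufa1, an X-linked gene for a small accessory subunit of the membrane arm, had the lowest mean ratio of all respiratory chain genes with the processing used here, though Uqcrq was lower with the median over probes, Ndufa4 with the deposited table and Cox6a2 with scanner-processed signals. The signal of Ndufa1 was 8884 in the Pparg-cKO and 11749 in the control pool of females, and 8538 and 10983 in those of males. Both Pparg-cKO pools lay below both control pools. The mean of the log2 ratios was -0.41 ± 0.18 (SD, n = 2 arrays), a 1.33-fold difference, with an adjusted p of 0.393 by limma. Ndufb2, another accessory subunit of the membrane arm, gave 7941 against 9947 in females and 6743 against 8781 in males. Its ratios of -0.32 and -0.33 were nearly equal on both arrays, with an adjusted p of 0.466 by limma. Ndufb4 gave 10514 against 12833 in females and 9382 against 11228 in males. Its mean ratio was -0.30, with an adjusted p of 0.529 by limma. For both of these genes, the Pparg-cKO pool was lower than the control pool of its own array, and for both, both Pparg-cKO pools lay below both control pools in signal.

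Several subunits of complex I carry its redox centres. Of these, Ndufv1, which binds the flavin that takes electrons from NADH, had ratios of -0.36 in females and 0.15 in males. Ndufs1, with several of the iron-sulfur clusters, had ratios of -0.27 and -0.04. Ndufv2, Ndufs7 and Ndufs8, which also hold iron-sulfur clusters, were lower on both arrays with mean ratios of -0.25, -0.22 and -0.25. None of these 5 was significantly changed by limma, with adjusted p-values between 0.639 and 0.943. When the 7 core subunits, which are those conserved from bacteria, were set apart after their values had been seen, their median was -0.27 in females and -0.04 in males, and 4 of the 7 were lower on both. The other 31 genes of complex I had medians of -0.27 and -0.18, and 27 were lower on both arrays. The difference between these groups was not tested.

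The paralogs Ndufa4 and Ndufa4l2 ran in opposite directions. Ndufa4 had a signal of 13101 in the Pparg-cKO and 17371 in the control pool of females, and of 12578 and 16111 in those of males. Its mean log2 ratio came to -0.37 ± 0.13 (SD, n = 2 arrays), with an adjusted p of 0.439 by limma. Ndufa4l2, a gene known to be induced when oxygen is low, had the highest mean ratio of all respiratory chain genes. Its signal was 542 in the Pparg-cKO and 463 in the control pool of females, and 962 and 636 in those of males. The Pparg-cKO pool was higher on each array, but the female Pparg-cKO pool lay below the male control pool. The mean of the log2 ratios was 0.43 ± 0.33 (SD, n = 2 arrays), with an adjusted p of 0.520 by limma, and only the male array passed 1.5-fold. The difference between the paralogs was not tested. The probes of the genes with the lowest and the highest ratio and of this paralog are shown by the opening 30 of their 60 bases, as deposited with the array and with mm9 positions, since they are what the ratios rest on.
Ndufa1 probe, chrX:34727627-34727686 (- strand): attactcagctatggtcatctgttcctgtt
Ndufa4 probe, chr6:11850423-11850482 (- strand): ccgcacaattttccacttaagcaggaaata
Ndufa4l2 probe, chr10:126954149-126954208 (+ strand): tgtccctggggatcaaacagaagcagccgt

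The 7 assembly factors of complex I had a median of -0.11, with -0.07 in females and -0.16 in males, and 6 ran lower on both arrays. The median was -0.19 with the deposited table and -0.013 with median centring. Ndufaf3 was the lowest, with signals of 669 against 806 in females and 590 against 781 in males. Its mean ratio was -0.29, with an adjusted p of 0.550 by limma. The others had mean ratios between -0.19, of Ndufaf2, and 0.00, of Ndufaf7.

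Complex II, succinate dehydrogenase, is the only complex whose subunits are all encoded in the nucleus, and it also belongs to the citric acid cycle. Its median was -0.06, with -0.20 in females and 0.06 in males. Sdha, the flavoprotein subunit that oxidises succinate, gave 2496 in the Pparg-cKO and 2703 in the control pool of females, and 3061 and 2642 in those of males. The Pparg-cKO pool was thus the lower of the pair in females and the higher in males, and the mean ratio was 0.06 ± 0.33 (SD, n = 2 arrays). Sdhb, the iron-sulfur subunit, was lower on both arrays with ratios of -0.23 and -0.09, and so was Sdhd, a membrane anchor, with -0.30 and -0.04. Sdhc, the other membrane anchor, had ratios of -0.09 and 0.16.

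Complex III, the cytochrome bc1 complex, had a median of -0.13, and 5 of its 9 genes were lower on both arrays. The array medians were far apart, at -0.28 in females and -0.03 in males, and median centring gave -0.21. Uqcrq, a small subunit without a redox centre, gave 10039 in the Pparg-cKO and 12629 in the control pool of females, and 8894 and 11858 in those of males. Both Pparg-cKO pools lay below both control pools. The mean of the log2 ratios was -0.37 ± 0.02 (SD, n = 2 arrays), a 1.29-fold difference with an adjusted p of 0.388 by limma. Uqcr11, another small subunit, had ratios of -0.26 and -0.30, with an adjusted p of 0.575 by limma. Cyc1, which encodes cytochrome c1 and passes electrons to cytochrome c, gave 2603 against 2987 in females and 3413 against 2726 in males. Its ratios of -0.30 and 0.43 made it the only respiratory chain gene that differed by 1.2-fold on both arrays in opposite directions. Uqcrfs1, the Rieske iron-sulfur protein, had ratios of -0.13 and 0.07. Uqcrc1 and Uqcrc2, the core proteins, had mean ratios of 0.11 and -0.13.

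Cytochrome c, the mobile carrier between complexes III and IV, is encoded by Cycs. Its signal was 8524 in the Pparg-cKO and 11051 in the control pool of females, and 8111 and 10243 in those of males. Both Pparg-cKO pools lay below both control pools. The mean of the log2 ratios was -0.35 ± 0.22 (SD, n = 2 arrays), with an adjusted p of 0.540 by limma. The value given is that of the brightest of 3 probes, and the next brightest gave -0.27. The other gave -0.04 from signals of only 7.26 to 8.48.

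Complex IV, cytochrome c oxidase, had a median of -0.14, with array medians of -0.10 in females and -0.11 in males, and 13 of its 17 tested genes were lower on both arrays, with none higher on both. Cox7c, a small subunit without tissue-specific isoforms, gave 9684 in the Pparg-cKO and 12093 in the control pool of females, and 9025 and 10942 in those of males. Both Pparg-cKO pools lay below both control pools, and the mean ratio was -0.32 ± 0.04 (SD, n = 2 arrays), with an adjusted p of 0.476 by limma. The X-linked Cox7b was also lower on both arrays, with ratios of -0.26 and -0.31 and an adjusted p of 0.554 by limma.

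Several subunits of complex IV exist as isoforms of different tissues. Among the widely expressed isoforms, Cox4i1 had a mean ratio of -0.04, Cox6a1 of 0.08, Cox6b1 of -0.16 and Cox8a of -0.15. Cox7a2 had a mean ratio of -0.28, with both arrays lower and an adjusted p of 0.577 by limma. Cox7a2l, a relative of Cox7a2 that joins respiratory complexes into larger assemblies, had ratios of -0.08 and -0.06. The isoforms of heart and skeletal muscle had no common direction. Cox8b had a signal of 532 in the Pparg-cKO and 528 in the control pool of females, and of 434 and 648 in those of males. After normalisation its ratios were -0.10 and -0.52, the lowest of all respiratory chain genes on the male array. Cox6a2 had signals between 10.2 and 15.0 in the 4 pools and ratios of -0.11 and -0.17, and its mean of -0.14 became -0.41 with scanner-processed signals, -0.37 with the deposited table and -0.22 with an offset of 0. Cox7a1 had signals between 152 and 179 and ratios of 0.17 and -0.11. Cox4i2, an isoform of the lung, had signals between 129 and 151 and ratios of -0.07 and 0.07. Of the isoforms known from testis, Cox6b2 had ratios of -0.02 and -0.32, Cox7b2 was close to background with signals between 3.51 and 4.21, and Cox8c was not well above background in any pool.

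Complex V had a median of -0.11, with -0.13 in females and -0.14 in males, and 10 of its 18 genes were lower on both. Atp5l, which encodes subunit g of the membrane part, gave 14481 in the Pparg-cKO and 18346 in the control pool of females, and 12985 and 16870 in those of males. Both Pparg-cKO pools lay below both control pools. The mean of the log2 ratios was -0.38 ± 0.01 (SD, n = 2 arrays), a 1.30-fold difference, and its adjusted p of 0.361 by limma was the smallest of all respiratory chain genes. Atp5l had more probes than any other gene of the chain, 6 in all, and their mean ratios lay between -0.38 and -0.28. By position each of the 6 overlaps at least one other, so that they are not independent readings. The opening 30 bases of 3 of them are shown, because these 3 share the run of 15 bases in capitals but differ around it. They may also bind related transcripts, which was not tested.
Atp5l brightest probe, chr9:44721352-44721411 (- strand): tgttcTTGGACCATGTGTAAcgggactgct
Atp5l lowest-position probe, chr9:44721315-44721368 (- strand): atgtttTTGGACCATGTGTAAcgggaccgc
Atp5l overlapping probe, chr9:44721357-44721416 (- strand): ttgaatgttcTTGGACCATGTGTAAagaga

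In the catalytic head of complex V, Atp5b, the catalytic beta subunit, gave 19463 against 19861 in females and 20280 against 19416 in males, with ratios of -0.08 and 0.05. Atp5a1, the alpha subunit, had ratios of -0.22 and 0.16, and Atp5d, the delta subunit, of -0.13 and 0.36. Atp5c1, the gamma subunit that turns inside the head, and Atp5e, the epsilon subunit, were lower on both arrays, with mean ratios of -0.16 and -0.13. The 3 genes for subunit c, whose ring turns in the membrane, are Atp5g1, Atp5g2 and Atp5g3, with mean ratios of -0.02, 0.05 and -0.07. Over the 5 head subunits Atp5a1, Atp5b, Atp5c1, Atp5d and Atp5e, a group set after the values had been seen, the median was -0.13 in females and 0.05 in males. The other 13 genes had medians of -0.15 and -0.20. Of these, Atp5o, which joins the head to the stalk, had ratios of -0.15 and -0.39, and Atp5h, subunit d of the stalk, of -0.21 and -0.29.

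**Figure D3:**
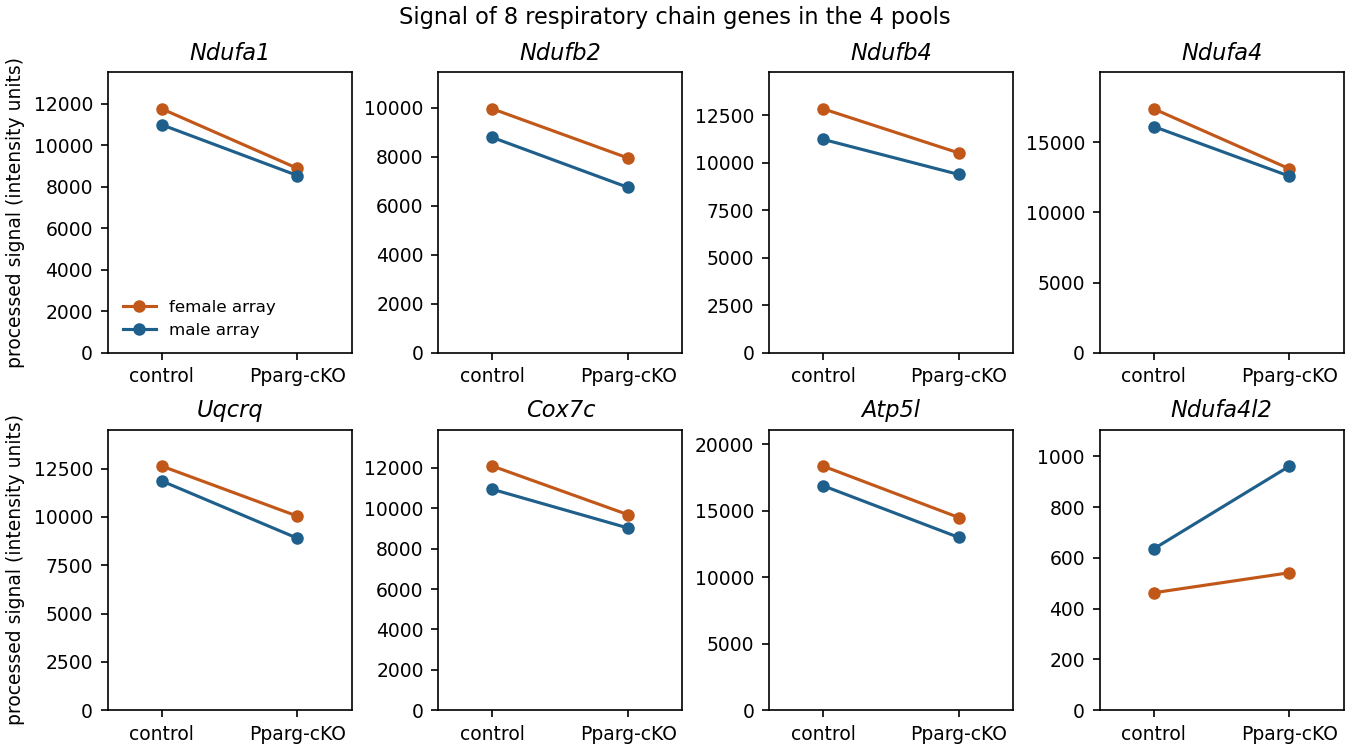
Processed signal (vertical axis of each panel, from 0, in intensity units) of the control and the Pparg-cKO pool, joined by a line for the female (orange) and male (blue) array, for the 7 genes lower by 1.2-fold on both arrays and for Ndufa4l2. The 7 genes are lower in the Pparg-cKO pool on both arrays, as for Ndufa1 with 8884 against 11749 and 8538 against 10983, while Ndufa4l2 is higher, with 542 against 463 and 962 against 636.

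In complex III, the 4 genes Uqcrc1, Uqcrc2, Uqcrfs1 and Cyc1 had medians of -0.15 in females and 0.14 in males, and the other 5 had -0.35 and -0.19. These groups were formed after the values had been seen and were not tested. Across the 94 tested genes, the mean ratio was lower for brighter genes, with a Spearman correlation of -0.377, and differed little with the GC content of the probe, with 0.05. It was lower for shorter genes, with 0.248 over the 88 genes with a RefSeq length. These correlations are across genes of the same 4 pools, which are not independent replicates. Of the 33 genes with several probes, 3 had probes of both signs, and the median range over the probes of a gene was 0.08. The widest range was that of Ndufa13, an accessory subunit of complex I, whose brightest probe gave -0.22, from signals between 11840 and 14817, and whose other probe gave 0.22, from signals between 79.1 and 114. The ratios of this dim probe were -0.05 in females and 0.48 in males, so that its opposite sign rests on the male array. The opening 30 bases of both are shown with their mm9 positions, which do not overlap.
Ndufa13 brightest probe, chr8:72418102-72418161 (- strand): gagatgagcaatgccaacttcggcttcacc
Ndufa13 other probe, chr8:72411694-72411753 (- strand): caaaatatactggcaccgactgcgtggcct

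Promoters of respiratory chain genes often hold sites for the transcription factors NRF1, ETS family members such as GABP, and YY1, which are known to join nuclear genes for mitochondrial proteins into a common programme. RefSeq promoters of the assembly GRCm38.p6, from 250 bases before to 50 bases after the start of the gene, matched 77 of the 95 genes. The letters GCATGCGC of NRF1 were found on either strand in 13 of these 77 genes, which is 16.9%, against 3.05% of all 27025 genes with a promoter. The letters CCGGAAG of ETS factors were found in 22.1% against 9.93%, and AAGATGGC of YY1 in 14.3% against 3.19%. The cyclic AMP response element, TGACGTCA, was found in 6.5% against 2.03%. A match describes the sequence and is not a measured binding site. The median ratio was -0.159 for the 13 genes with and -0.184 for the 64 without those of NRF1, and -0.164 for the 17 with and -0.185 for the 60 without those of ETS factors. It was -0.219 for the 11 with and -0.171 for the 66 without those of YY1, and -0.248 for the 5 with and -0.178 for the 72 without the cyclic AMP response element. These differences were not tested. The 150 bases before the start are shown for 5 genes as examples with the letters of NRF1, ETS factors or YY1, among them Cycs with its ratio of -0.35 and Sdhb with -0.16, and capitals mark the letters searched.
Cycs promoter, chr6:50566570-50566719 (- strand): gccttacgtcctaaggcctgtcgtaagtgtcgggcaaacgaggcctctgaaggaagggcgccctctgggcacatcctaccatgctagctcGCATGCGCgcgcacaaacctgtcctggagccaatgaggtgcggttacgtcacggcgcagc
Ndufa11 promoter, chr17:56717612-56717761 (+ strand): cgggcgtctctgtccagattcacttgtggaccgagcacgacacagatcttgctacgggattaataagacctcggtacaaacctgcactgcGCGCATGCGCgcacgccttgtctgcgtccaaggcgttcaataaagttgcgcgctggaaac
Sdhb promoter, chr4:140961121-140961270 (+ strand): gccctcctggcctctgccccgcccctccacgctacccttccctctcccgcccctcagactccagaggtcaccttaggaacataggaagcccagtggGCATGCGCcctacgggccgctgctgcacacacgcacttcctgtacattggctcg
Uqcr11 promoter, chr10:80406822-80406971 (- strand): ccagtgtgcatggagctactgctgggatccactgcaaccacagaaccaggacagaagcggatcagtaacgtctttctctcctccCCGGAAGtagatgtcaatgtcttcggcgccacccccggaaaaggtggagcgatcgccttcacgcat
Atp5j promoter, chr16:84834977-84835126 (- strand): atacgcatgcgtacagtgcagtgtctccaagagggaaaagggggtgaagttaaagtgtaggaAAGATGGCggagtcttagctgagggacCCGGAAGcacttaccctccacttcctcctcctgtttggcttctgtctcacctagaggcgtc
Cycs, Ndufa11 and Sdhb show the letters of NRF1, Uqcr11 those of ETS factors, and Atp5j those of YY1 and of ETS factors. These 5 genes were all lower on both arrays, whereas of the 77 respiratory chain genes with a promoter, 9 of the 13 with and 48 of the 64 without the letters of NRF1 were so, and Atp5g2 and Uqcrc1, which hold these letters, were higher on both.

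Other genes of mitochondrial metabolism were compared by lists. The assembly factors of complex IV had a median of -0.14, and 9 of 13 were lower on both arrays with none higher on both. Among them, Surf1, which helps to build the haem centres of the oxidase, had ratios of -0.20 and -0.30. For the assembly factors of complexes II, III and V the median was -0.15 and 11 of 13 were lower on both arrays, among them Sdhaf3, with -0.24 and -0.40. Proteins of the mitochondrial ribosome, which makes the subunits encoded by mitochondrial DNA, had a median of -0.13, with 52 of 77 lower and 3 higher on both arrays. Proteins of the cytosolic ribosome had a median of 0.01, with 9 of 81 lower and 17 higher on both. No gene of these 4 lists passed limma's test at an adjusted p under 0.05, and at an unadjusted p under 0.05 there were none, 1, 3 and none, each of them lower. The 3 genes of the mitochondrial ribosome are 3.90% of those tested, near the 4.17% of all genes.

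Transcripts of the mitochondrial genome itself behaved differently on the 2 arrays. The 10 genes of the respiratory chain encoded there that were on the array had medians of 0.23 in females and -0.11 in males, and only 1, ND4, was lower on both. ND1, a core subunit of complex I, had ratios of 0.07 and 0.06, COX2, a catalytic subunit of complex IV, of 0.28 and -0.13, and ATP8 of complex V of 0.62 and -0.18. The regulators of mitochondrial biogenesis had medians of -0.08 in females and 0.07 in males, with 4 of 12 lower and 3 higher on both arrays. Ppargc1a, a coactivator that drives mitochondrial biogenesis and binds PPARG, gave 246 in the Pparg-cKO and 304 in the control pool of females, and 226 and 323 in those of males. Its mean ratio was -0.41 ± 0.19 (SD, n = 2 arrays), with an adjusted p of 0.417 by limma. Its relative Pprc1 had ratios of 0.26 and 0.58, with an adjusted p of 0.435. Nrf1 had ratios of 0.11 and -0.02, Gabpa of 0.07 and -0.08, and Tfam, which packs and transcribes mitochondrial DNA, of -0.11 and -0.09.

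In the citric acid cycle the median was -0.02, with 5 of 13 genes lower and 2 higher on both arrays. The carriers of the inner and outer mitochondrial membrane had medians of -0.11 in females and 0.15 in males, with 6 of 10 genes of opposite sign. Of these, Slc25a5, an exchanger of ADP and ATP, was lower with ratios of -0.38 and -0.42 and an adjusted p of 0.342 by limma, and its relative Slc25a4 had ratios of -0.17 and 0.16. In glycolysis the median was 0.08, with -0.02 in females and 0.21 in males. Ldhb, the heart-type subunit of lactate dehydrogenase, was the only gene of all these metabolic lists to pass either rule. Its signal was 2872 in the Pparg-cKO and 7934 in the control pool of females, and 2736 and 6837 in those of males. Ldhb fell by 1.43 on the log2 scale on average, with an adjusted p of 0.0233 by limma, and it passed the rule of 1.5-fold on both arrays. Ldha, the other subunit, had ratios of 0.06 and 0.03.

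**Figure D4:**
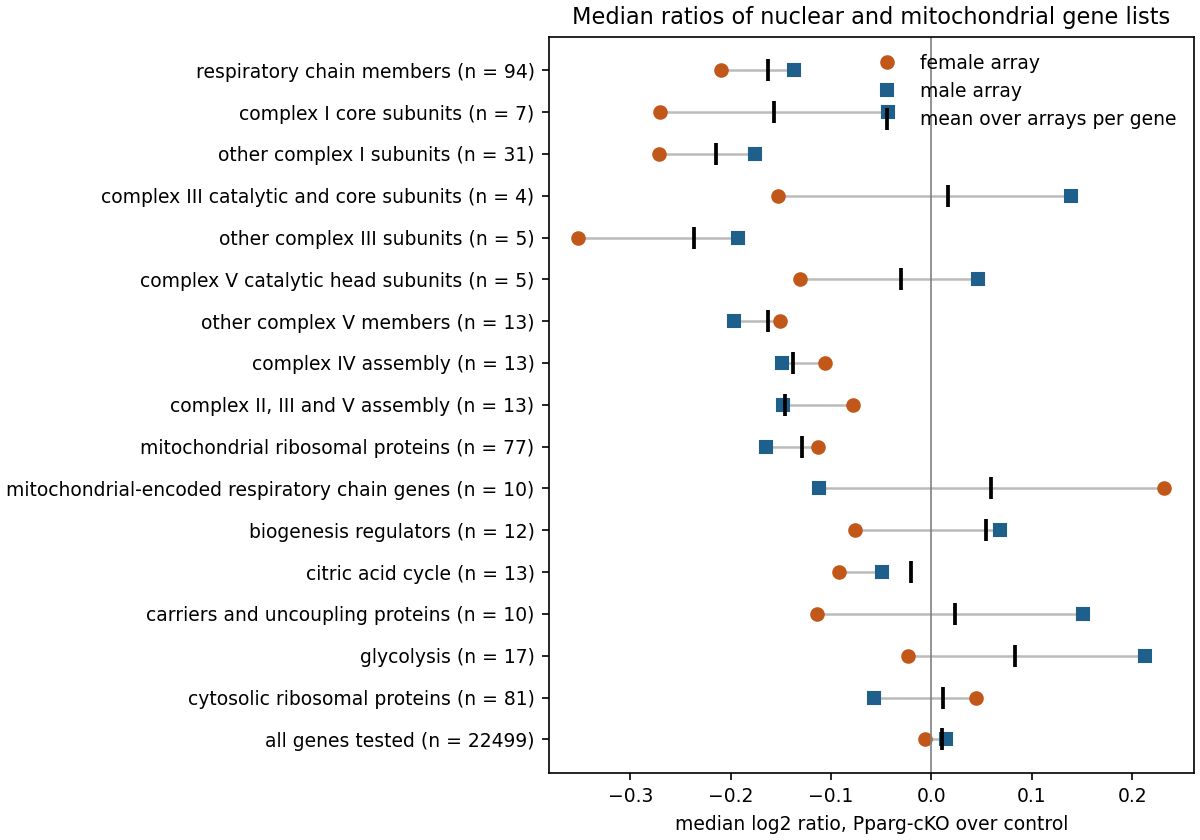
Median log2 ratio of Pparg-cKO over control (horizontal axis) of each list of genes (vertical axis, with the number tested) on the female array (orange circles), on the male array (blue squares) and for the mean over both arrays of each gene (black bars). Assembly factors and mitochondrial ribosomal proteins lie below 0 on both arrays, the genes encoded by mitochondrial DNA lie at 0.23 and -0.11, and all genes tested lie close to 0.

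Markers of several cell types differed between the pools as well. Markers of superficial urothelial cells were lower in Pparg-cKO pools, all 6 on both arrays, and Krt20 fell by 3.09 on the log2 scale on average, with an adjusted p of 0.00649 by limma. The summed signal of this list was 45366 against 78083 in females and 49855 against 67979 in males. Markers shared by the urothelium and other epithelia had medians of -0.33 in females and 0.41 in males, with 2 of 8 lower and 3 higher on both arrays, and summed signals of 43204 against 51779 and 58366 against 44609. Markers of smooth muscle, the tissue around the ureteric epithelium, were above background in every pool and had a median of -0.14, with 3 of 8 lower on both arrays and the mean ratio below 0 for 7. Their summed signal was 106744 against 118252 in females and 105902 against 119818 in males. Markers of skeletal muscle, a tissue rich in mitochondria, were lower on both arrays for 8 of 10 tested, with a median of -0.47. Their summed signal was 8254 against 9352 in females and 7519 against 10637 in males. Of the 11 markers on the array, 10 were well above background in every pool and Ckmt2 was so in none. Markers of heart muscle were lower on both arrays for 4 of 6, and their summed signal was 25630 against 27565 in females and 25927 against 31656 in males. Markers of liver had medians of -0.05 in females and -0.92 in males, with 5 of 8 lower on both arrays and summed signals of 3578 against 4616 and 4002 against 7589. Markers of brown adipose tissue, a list that holds Cox8b of the genes described, had a median of -0.31, with 3 of 5 tested lower on both arrays, and summed signals of 15541 against 19449 in females and 15552 against 15212 in males. Of these, Adipoq had ratios of -1.73 and -0.25, Cidea of -0.38 and -0.36 with an adjusted p of 0.379 by limma, Fabp4, which made up most of the sum, of -0.30 and 0.07, and Ucp1, which defines this tissue, had signals between 4.21 and 6.38. Markers of the kidney tubule had a median of -0.46, with array medians of -0.13 in females and -0.53 in males, with 4 of 5 tested lower on both arrays, while Umod, Slc12a1 and Kap were not well above background in any pool and the list summed to between 1758 and 1958. Markers of blood had a median of 0.11, with none lower and 3 of 6 higher on both arrays, and summed signals of 80221 against 72490 and 73767 against 70790. Markers of the germ line, a list that shares Cox6b2, Cox7b2 and Cox8c with the genes described, had a median of 0.01, with 1 of 7 lower and 3 higher on both arrays. Its only called gene was Prm1, which encodes a protein of sperm chromatin and rose by 3.73 on the log2 scale on average, with an adjusted p of 0.00649 by limma. The part of these cell types in the ratios of the respiratory chain genes was not tested. In whole ureters, fewer cells rich in mitochondria and less of these transcripts per cell cannot be told apart.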

How the data were processed

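RNA of sex-sorted pools of E18.5 ureters was labelled and hybridised to Agilent Whole Mouse Genome Oligo Microarrays V2 by the authors, both on 1 slide. The deposited scanner files of Agilent Feature Extraction 10.7.3.1 hold red and green spot intensity values, 4 spots for each of 39429 probes, together with processed signals that the software had background-subtracted and dye-normalised. The table deposited by the authors holds a signed fold change for each probe, treated here as a score of unstated normalisation and used for direction and as an alternative.

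Mean signals and median backgrounds were corrected with normexp (offset 50) and loess-normalised per array (limma 3.58.1, R 4.3.3), leaving out control and outlier spots. Log2 ratios computed here from these intensities were averaged over spots. A gene was read by its brightest probe and tested if at least 1 channel of each array was well above background. The 22499 genes tested entered lmFit and eBayes with an intercept only, two-sided, with Benjamini-Hochberg adjustment over all of them. Printed signals are processed signals, normalised differently from the ratios, so that small differences can disagree in sign. The fold rule asked for 1.5-fold on both arrays in 1 direction and 100 or more units of processed signal in the brighter pool of each.

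The members and lists were chosen with earlier results of these data known. Named genes were those with the 12 smallest p-values under 0.05, the 8 largest rises and falls with both arrays alike, isoform sets, 10 catalytic or carrier genes (1 is not reported here), genes opposite by 1.2-fold on both arrays and list genes past either rule. Other genes were named after their values were seen. Of the 95 members, 89 matched a RefSeq transcript, and 3 now have another symbol, Atp5f1 (Atp5pb), Atp5s (Dmac2l) and Atp5sl (Dmac2). The fit was tested on simulated data. Alternatives were other signals, offset, centring, probe summary and filters, the deposited table and each array alone.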

Additional observations from a re-analysis of the deposited data

Results flagged for a closer look

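Cyc1, the gene for cytochrome c1, was singled out because the ratio, on the log2 scale, was -0.30 in females and 0.43 in males, each more than 1.2-fold from equality and in opposite directions. Each value comes from 1 array, and whether they differ was not tested. Sex, dye orientation and array changed together.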

How the results depend on the processing

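The test was paired by array, because each ratio already sets both pools of an array against each other. Under 7 alternative settings, no respiratory chain gene passed limma's test or the 1.5-fold rule, the median ratio of all members stayed between -0.19 and -0.16, that of every complex stayed below 0, and between 63 and 71 members were lower on both arrays. The smallest adjusted p of a member lay between 0.24 and 0.864. The count of members lower at an unadjusted p under 0.05, 14 in the report, was 34 with the deposited table, 25 without a filter on dim probes, 9 with genes well above background in both channels, 7 with an offset of 0, 6 with scanner-processed signals and 3 with median centring. That of members higher was 0 with the deposited table. At 1.2-fold, 7 members passed the fold rule. On each array alone, between 0 and 1 member passed the 1.5-fold rule. The median of assembly factors of complex I was -0.19 with the deposited table and -0.013 with median centring. That of complex IV was -0.16 with the deposited table, -0.15 with median centring, -0.15 with an offset of 0 and -0.15 with scanner-processed signals, and lay between -0.11 and -0.10 on each array alone. That of complex V was -0.12 with the deposited table, -0.15 with median centring, -0.12 with the median over probes, -0.12 with an offset of 0 and -0.13 with scanner-processed signals, and lay between -0.14 and -0.13 on each array alone. These moves exceed the SD of the 2 array medians, and the cause was not tested. Among the named genes, Atp5a1, Atp5b, Atp5g2, Cox4i2, Cox7b2 and Cox8c changed sign under at least 1 setting, all from means within 0.05 of 0. Ldhb was no longer called with the deposited table, at -1.39, where limma called 0 of all 22499 genes tested. Without the Ndufaf genes, Atp5s, Atp5sl and Atp5c1-ps, 84 tested genes remained, with Cycs, Cox7a2l and Ndufa4l2 still among them. Their median was -0.18 and 61 were lower on both arrays. This choice was made after seeing the data. Signals of Cox6a2 and Cox7b2 are so close to background that their ratios carry little information.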
